A study of Homo sapiens with 60 samples.

Results

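Wortmannin at 10 µM was compared with the dimethyl sulfoxide vehicle in A549, an established line from a human lung adenocarcinoma, by RNA sequencing after 24 h. The comparison takes 6 of the 60 libraries of the series, chosen by their labels: 3 of the group Wortmannin and 3 of the group Vehicle. The other libraries form 18 groups of 3, treated with water extracts of 6 herbal drugs at 20, 100 or 500 µg/mL, and in the design text wortmannin is a positive control. Labels of the Vehicle libraries give 0.1% dimethyl sulfoxide, whereas the design text gives 2%. No label of the Wortmannin libraries gives a solvent, so a solvent difference and the response to the compound cannot be told apart. All 6 libraries come from 1 unmodified cell line, and 1 dose and 1 time were sampled. The first part of the library name is A1 for every Vehicle library and 1 for every Wortmannin library, so the same holds for a difference between these library sets. Nothing in the labels says that the 3 libraries of a group came from separate cultures. The p-values thus cover the spread between libraries within groups, estimated over all 60 libraries, and this spread may be technical.

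Wortmannin is a fungal metabolite that binds covalently in the ATP pocket of phosphoinositide 3-kinases (PI3K). These lipid kinases act below growth factor receptors, and their product brings the kinase AKT to the membrane, where AKT holds FOXO transcription factors out of the nucleus and releases mTORC1, the complex that drives protein synthesis, ribosome production and, through the transcription factor ATF4, the making and uptake of amino acids. At micromolar levels the compound also inhibits relatives of these kinases, among them DNA-dependent protein kinase, ATM, mTOR and, outside the family, myosin light chain kinase and polo-like kinases.

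Libraries held 24.9 to 28.4 M counts in Vehicle and 26.5 to 28.0 M in Wortmannin, and pairs of replicates correlated at 0.992 to 0.993 (Pearson's r of log2 CPM across genes). The mitochondrial genome gave 11.4 to 11.8% of the counts of Vehicle libraries and 10.7 to 12.6% of those of Wortmannin. CDKN2A and CDKN2B, which A549 cells lack, had 0 counts in all 6 libraries. Markers of the line and of lung epithelium summed to 16317 to 16641 CPM (read counts scaled to a common library size) in Vehicle and 16380 to 16861 in Wortmannin. Of 16 markers of fibroblasts, endothelium and blood, 3 had no count in any Vehicle library (DCN, CD3E and HBB) and 4 none in any Wortmannin library (KDR, PTPRC, CD3E and HBB). Their summed level was 48.7 to 50.03 CPM in Vehicle and 53.02 to 58.0 CPM in Wortmannin. Of the 7 that were tested, CD14 (log2 fold change 0.81 ± 0.157, SE), CD68 (0.53 ± 0.129) and PDGFRA (0.88 ± 0.319) rose, and their part in the results below was not tested. Without Wortmannin replicate 1, Vehicle replicate 1 or Vehicle replicate 2, PDGFRA did not pass (0.70, 0.75 and 0.67).

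Of 17368 genes tested, 6499 (37.4%) passed an adjusted p of 0.05 in edgeR's quasi-likelihood test with Benjamini-Hochberg adjustment. Of these, 3121 rose (18% of the genes tested) and 3378 fell (19.4%). In bulk samples, fewer cells of a type and less RNA per cell cannot be told apart. Most changes were small: the called genes had a median absolute log2 fold change of 0.27, while 214 rose at least 2-fold (1.23%) and 54 fell at least 2-fold (0.311%). The 3 Wortmannin libraries lay above the 3 Vehicle libraries for 4408 genes (25.4%) and below them for 4451 (25.6%). Each of the 18 extract groups was also compared with Wortmannin. In 1168 genes (6.73%) Wortmannin was higher than each of the 19 other groups, Vehicle included, and in 1597 (9.2%) it was lower than each of them. These 19 comparisons share the 3 Wortmannin libraries. No extract library has the first part of its name in common with Wortmannin either. In all 19 comparisons, a difference between library sets and the response to the compound thus cannot be told apart.

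The direction of change went with the level and the length of the gene. The 13716 protein-coding genes tested were split into 5 equal classes by mean CPM over the 6 libraries, and likewise by genomic length. Of the most abundant class 47.4% fell and 15.7% rose, with a median log2 fold change of −0.09. In the least abundant class 1.79% fell and 19.2% rose (median 0.23). The low-count filter can keep a gene of low level through 3 libraries alone, also those of Wortmannin where it is high. The part of this filter in the shares of that class was not tested. Of the longest class 30.7% rose and 13.9% fell, against 15.9% and 23.2% of the shortest class and 18.9% and 29.5% of the middle class. The part of level and length in the group counts given here was not tested, and where most members of a group are in the most abundant class their number is given beside the count. These groups are gene lists chosen with earlier results of these data known, so their shares are a description only. A list need not hold every gene of its family or process.

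**Figure D1:**
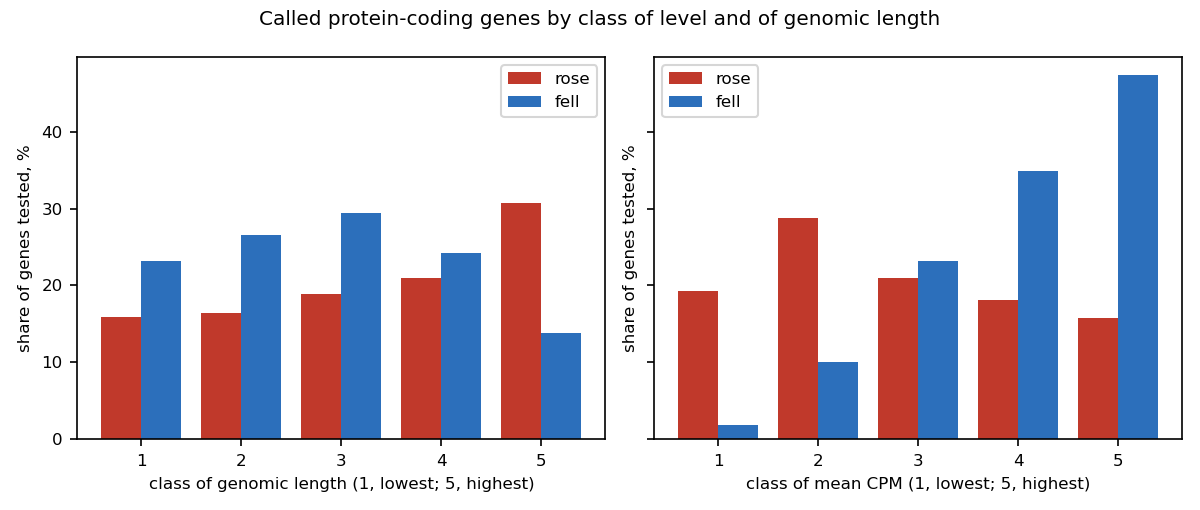
Share of tested protein-coding genes that rose (red) or fell (blue) with wortmannin, in %, by class of genomic length (left) and of mean CPM over the 6 libraries (right). The share that fell grows with the level, from 1.79% in the lowest class to 47.4% in the highest, and the share that rose is highest, at 30.7%, in the longest class.

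Among the 10 tested PI3K subunits, the main targets of wortmannin, 1 passed: the regulatory subunit gene PIK3R2 stood at 35.3, 40.0 and 39.1 CPM in Vehicle and at 45.1, 47.3 and 45.1 in Wortmannin, without overlap. Its log2 fold change was 0.26 ± 0.047 (± SE, as in all later brackets; adjusted p = 7.5e-06). The catalytic subunit genes PIK3CA (0.08 ± 0.054), PIK3CB (−0.02 ± 0.043) and PIK3CD (0.03 ± 0.091) and the endosomal class member PIK3C3 (0.08 ± 0.059) did not pass. Of 24 phosphatases of phosphoinositides and PI4-kinases, 4 rose and 3 fell. INPP4B, a phosphatase that acts on a product of PI3K signalling, was at 17.7, 14.6 and 15.95 CPM in Vehicle and 23.0, 26.5 and 25.5 in Wortmannin, all 3 Wortmannin libraries higher (0.64 ± 0.072, adjusted p = 8.6e-11). The phosphatase genes FIG4 (0.30 ± 0.072) and SYNJ2 (0.17 ± 0.045) rose, and MTMR2 (−0.27 ± 0.04) and the kinase gene PI4KB (−0.16 ± 0.044) fell. INPP4A (0.12) was called in the full fit but not without Wortmannin replicate 1 (0.10) or Vehicle replicate 2 (0.11).

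Below PI3K, 4 of 26 genes of AKT, mTOR and S6 kinase signalling rose and 11 fell, with a median log2 fold change of −0.08 (0.01 over all genes tested). Of the 26, 15 belong to the most abundant class. Their largest fall was that of EIF4EBP1, which encodes a translation repressor that mTORC1 switches off. It stood at 89.2, 95.6 and 89.0 CPM in Vehicle and 55.6, 59.3 and 55.4 in Wortmannin (−0.69 ± 0.063, adjusted p = 1.1e-12), and its relative EIF4EBP2 moved the other way, from 82.3, 87.1 and 80.6 to 100.3, 96.9 and 97.7 CPM (0.24 ± 0.041, adjusted p = 3.8e-06). In both genes the groups did not overlap. RHEB, the GTPase that activates mTORC1 (−0.26 ± 0.042), the mTOR partner MLST8 (−0.25 ± 0.05), AKT1S1, which encodes an inhibitory mTORC1 subunit (−0.26 ± 0.071), GSK3A (−0.28 ± 0.053), SGK1 (−0.21 ± 0.044) and RPS6KB2 (−0.20 ± 0.051) fell. MTOR (−0.04 ± 0.057), RPTOR (−0.05 ± 0.051) and RICTOR (0.10 ± 0.046) did not pass. The falls of AKT1 (−0.10), AKT2 (−0.10) and PDPK1 (−0.12) and the rises of TSC2 (0.15) and DEPTOR (0.55) each lost their call when 1 library was left out. Without Wortmannin replicate 3 or Vehicle replicate 2, AKT1 was at −0.08 in both cases and AKT2 likewise, and AKT2 was at −0.08 without Vehicle replicate 3 too. PDPK1 lay between −0.13 and −0.10 and did not pass when any 1 library other than Vehicle replicate 1 was left out. TSC2 was at 0.14 without Wortmannin replicate 1 or 2, and DEPTOR at 0.41 without Wortmannin replicate 2 and 0.44 without Vehicle replicate 1. The rises thus numbered 2 without Wortmannin replicate 2.

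Of 8 other kinases that wortmannin can bind, 2 rose and 2 fell. The mitotic kinase gene PLK1 fell from 210.01, 202 and 205 CPM to 114, 111 and 112 (−0.87 ± 0.036, adjusted p = 3.1e-28). ATM, the kinase that answers DNA breaks, was at 65.6, 66.3 and 67.3 CPM in Vehicle and 78.0, 79.1 and 77.2 in Wortmannin (0.23 ± 0.062, adjusted p = 0.0022). Neither gene's groups overlapped, PLK1 being low and ATM high in the Wortmannin libraries. PRKDC, the catalytic subunit of DNA-dependent protein kinase, fell by 0.19 but was not called without Wortmannin replicate 1 or Vehicle replicate 3 (−0.18 in each). MYLK, the myosin light chain kinase gene, rose by 0.16 and was not called without Vehicle replicate 1 (0.14), so that each count came to 1 without those libraries.

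Of 22 tested receptor tyrosine kinases and their IRS and GAB adaptors, 13 rose and 2 fell (median 0.18). ERBB3, a receptor that binds PI3K and has little kinase activity of its own, stood at 6.63, 7.25 and 7.88 CPM in Vehicle and 11.6, 11.7 and 11.2 in Wortmannin (0.66 ± 0.109, adjusted p = 1.3e-06). The insulin receptor gene INSR was at 16.5, 18.4 and 17.1 CPM and 20.8, 21.9 and 21.5 (0.30 ± 0.06), and the adaptor gene IRS1 at 93.3, 94.2 and 93.4 and 124, 127 and 121 (0.40 ± 0.061). In all 3 genes every Wortmannin library was above every Vehicle library, and Wortmannin was higher than each of the 19 other groups. Only 4 of the 13 rises, these 3 included, were above each of the 19 groups. AXL, a receptor for GAS6, was at 234, 232 and 242 CPM in Vehicle and 164, 168 and 166 in Wortmannin (−0.51 ± 0.031, adjusted p = 1.9e-20), and FGFR4 fell as well (−0.36 ± 0.054). RET, at 0.606, 0.500 and 0.330 CPM in Vehicle and 0.831, 1.29 and 0.787 in Wortmannin, was called (1.02) but not without Wortmannin replicate 2 (0.76) or Vehicle replicate 3 (0.81). Of 13 IGF ligands, binding proteins and neighbours, 3 rose and 3 fell. The growth factor gene IGF2 was at 8.81, 9.14 and 9.53 CPM in Vehicle and 29.9, 29.4 and 27.2 in Wortmannin, and its imprinted neighbour on chromosome 11, the non-coding H19, at 131, 129 and 138 and 62.2, 57.6 and 62.0. Thus the libraries of IGF2 were separated upwards (1.65 ± 0.096) and those of H19 downwards (−1.13 ± 0.11). IGFBP7, which binds insulin-like growth factors and matrix, rose from 46.0 ± 1.51 to 72.9 ± 1.71 CPM (mean ± SD, n = 3; 0.67 ± 0.053).

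Of 22 tested FOXO factors and targets 7 rose and 0 fell (median 0.16), and 15 did not pass. Only 1 of the 22, BCL6, was above each of the 19 other groups. The median Vehicle level of the list was 14.3 CPM. Of all protein-coding genes with a mean of 3.58 to 15.1 CPM, 28.8% rose and 10.1% fell. PDK4, a kinase that inhibits pyruvate dehydrogenase, was at 33.7, 33.3 and 34.2 CPM in Vehicle and 49.2, 47.3 and 48.1 in Wortmannin (0.52 ± 0.101, adjusted p = 5.8e-05). KLHL24, a substrate adaptor of a ubiquitin ligase, was at 6.14, 6.32 and 5.46 CPM and 8.48, 8.61 and 9.45 (0.57 ± 0.088, adjusted p = 3.9e-07), again without overlap. YPEL3 (0.55 ± 0.153), BCL6 (0.38 ± 0.077), BTG1 (0.25 ± 0.047) and RBL2 (0.21 ± 0.04), which restrain growth or transcription of growth genes, rose too. KLHL24 was higher in Wortmannin than in 15 of the other 19 groups but lower than in 2 of them.

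Genes for the supply of amino acids fell widely. Asparagine synthetase, ASNS, carries in its promoter a copy of the C/EBP-ATF response element, the DNA site that ATF4 is known to bind with its partners. The promoter windows of RefSeq (GRCh38.p14; 250 bases before to 50 after each annotated start, several windows for some genes) were searched on both strands for the letters TGATGNAAN, where N is any base. A stretch of 10 bases on each side of the match is shown for 5 genes that fell, to show the element beside the values, written 5′ to 3′ on the strand of the gene, with the match in capitals. The stretches of CHAC1 and GARS1 hold the match on the opposite strand and so read as its reverse complement.
ASNS: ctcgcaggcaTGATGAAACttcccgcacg
CHAC1: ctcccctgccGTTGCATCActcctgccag
BCAT1: gtcttcctgcTGATGCAATccgctaggtc
SLC1A5: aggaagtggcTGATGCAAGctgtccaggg
GARS1: ttacgcggcgATTTCATCAtgctccgagc
They lie at chr7:97872458-97872486 (minus strand), chr15:40953251-40953279 (plus), chr12:24949131-24949159 (minus), chr19:46784893-46784921 (minus) and chr7:30594834-30594862 (plus). A match was found for 4.45% of the 27305 genes with a window and for 2.71% of the 11836 of them that were tested here. It was found for 5 of 19 stress regulators, 1 of 14 serine, glycine and folate enzymes, 3 of 12 other enzymes of amino acid synthesis, 6 of 19 amino acid transporters and 7 of 19 cytosolic tRNA synthetases with a window. Of the 22 list members with a match, 20 fell and the others, FGF21 and SLC1A3, had counts too low to be tested. In these lists 37 members without a match fell too, and a match of letters is not a measured binding site.

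ASNS itself stood at 95.0, 99.7 and 97.5 CPM in the Vehicle libraries and 28.4, 29.6 and 31.9 in the Wortmannin libraries, far apart (−1.70 ± 0.054). CHAC1, which encodes an enzyme that breaks down glutathione, was at 6.63, 5.61 and 7.15 CPM in Vehicle and 1.38, 0.923 and 1.11 in Wortmannin (−2.49 ± 0.142). ATF4 was lower at the level of its own transcript, with 259.7, 273 and 258 CPM in Vehicle and 173, 172 and 170.2 in Wortmannin (−0.62 ± 0.038, adjusted p = 1.4e-20). None of these genes had overlapping groups, and each was lower in Wortmannin than in all 19 other groups. Of 19 tested regulators of the amino acid stress response, 16 fell (median −0.36), 12 of them below each of the 19 groups. They included the hormone-like STC2 (−1.70 ± 0.071), the chromatin protein NUPR1 (−1.39 ± 0.104), and the transcription factors ATF3 (−1.08 ± 0.117) and DDIT3 (−0.89 ± 0.106). The kinases that start the response, EIF2AK3 (0.12 ± 0.053) and EIF2AK4 (−0.06 ± 0.039), did not pass.

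Enzymes that make serine, glycine and one-carbon units fell in 14 of 20 cases (median −0.18). PHGDH, the first enzyme of serine synthesis, was at 58.1, 63.9 and 60.2 CPM in Vehicle and 26.6, 25.2 and 26.2 in Wortmannin (−1.22 ± 0.047), and PSAT1, the next enzyme, at 262, 261 and 267 and 118, 114 and 118 (−1.18 ± 0.041). The mitochondrial folate enzymes MTHFD2 (−0.85 ± 0.043), SHMT2 (−0.66 ± 0.039), ALDH1L2 (−0.73 ± 0.063) and MTHFD1L (−0.35 ± 0.047) fell as well, by more than their cytosolic counterparts MTHFD1 (−0.18 ± 0.03) and SHMT1 (−0.12 ± 0.037), although the difference between the compartments was not tested. Among 17 other enzymes of amino acid synthesis 8 fell and 3 rose. The falls were led, after ASNS, by CBS, which turns homocysteine into cystathionine (−1.10 ± 0.068), and BCAT1, a transaminase of branched-chain amino acids (−0.82 ± 0.038). The pair that makes arginine, ASS1 and ASL, went the other way: ASS1 was at 9.46, 9.93 and 9.02 CPM in Vehicle and 14.2, 14.8 and 14.5 in Wortmannin (0.62 ± 0.074, adjusted p = 5.5e-10), and ASL rose by 0.38. The mitochondrial enzyme PCK2, another gene of this response, fell from 30.3 ± 1.75 to 15.7 ± 1.04 CPM (−0.96 ± 0.058).

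Of 21 tested amino acid transporters, 11 fell and 2 rose (median −0.15). SLC7A5, the light chain of the exchanger for large neutral amino acids, was at 3671, 3693 and 3735 CPM in Vehicle and 2162, 2248 and 2203 in Wortmannin (−0.75 ± 0.037, adjusted p = 9.8e-25). Its heavy chain SLC3A2 was at 851, 883 and 902 CPM and 568, 579 and 569 (−0.62 ± 0.048), and the glutamine carrier SLC1A5 at 434, 445 and 466 and 305, 306 and 302 (−0.56 ± 0.034). In all 3 genes the groups were clearly apart. SLC38A2, a sodium-coupled carrier of small neutral amino acids, rose instead, from 265, 242 and 261 CPM to 349, 340.2 and 349.8 (0.43 ± 0.034, adjusted p = 5.4e-16), and so did the glutamate carrier SLC1A1 (0.74 ± 0.16).

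Cytosolic tRNA synthetases, which load amino acids onto tRNA, fell in 21 of 24 cases (median −0.41), and 19 of them were below each of the 19 other groups. Of the 24 genes, 18 belong to the most abundant class. YARS1, the gene with the lowest adjusted p of the comparison (6.4e-35), was at 157, 159 and 159 CPM in Vehicle and 82.2, 82.7 and 86.2 in Wortmannin (−0.92 ± 0.027). MARS1 was at 258, 264 and 261 CPM and 147, 144 and 150.4 (−0.83 ± 0.031), and GARS1 at 217, 234 and 219 and 132, 128 and 133 (−0.77 ± 0.032). QARS1 (0.23 ± 0.03) and TARS3 (0.24 ± 0.07) rose, QARS1 from 109 ± 2.59 to 128 ± 2.01 CPM. Of the 17 mitochondrial tRNA synthetases, 10 fell (median −0.18), led by EARS2 (−0.39 ± 0.044) and SARS2 (−0.34 ± 0.045).

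**Figure D2:**
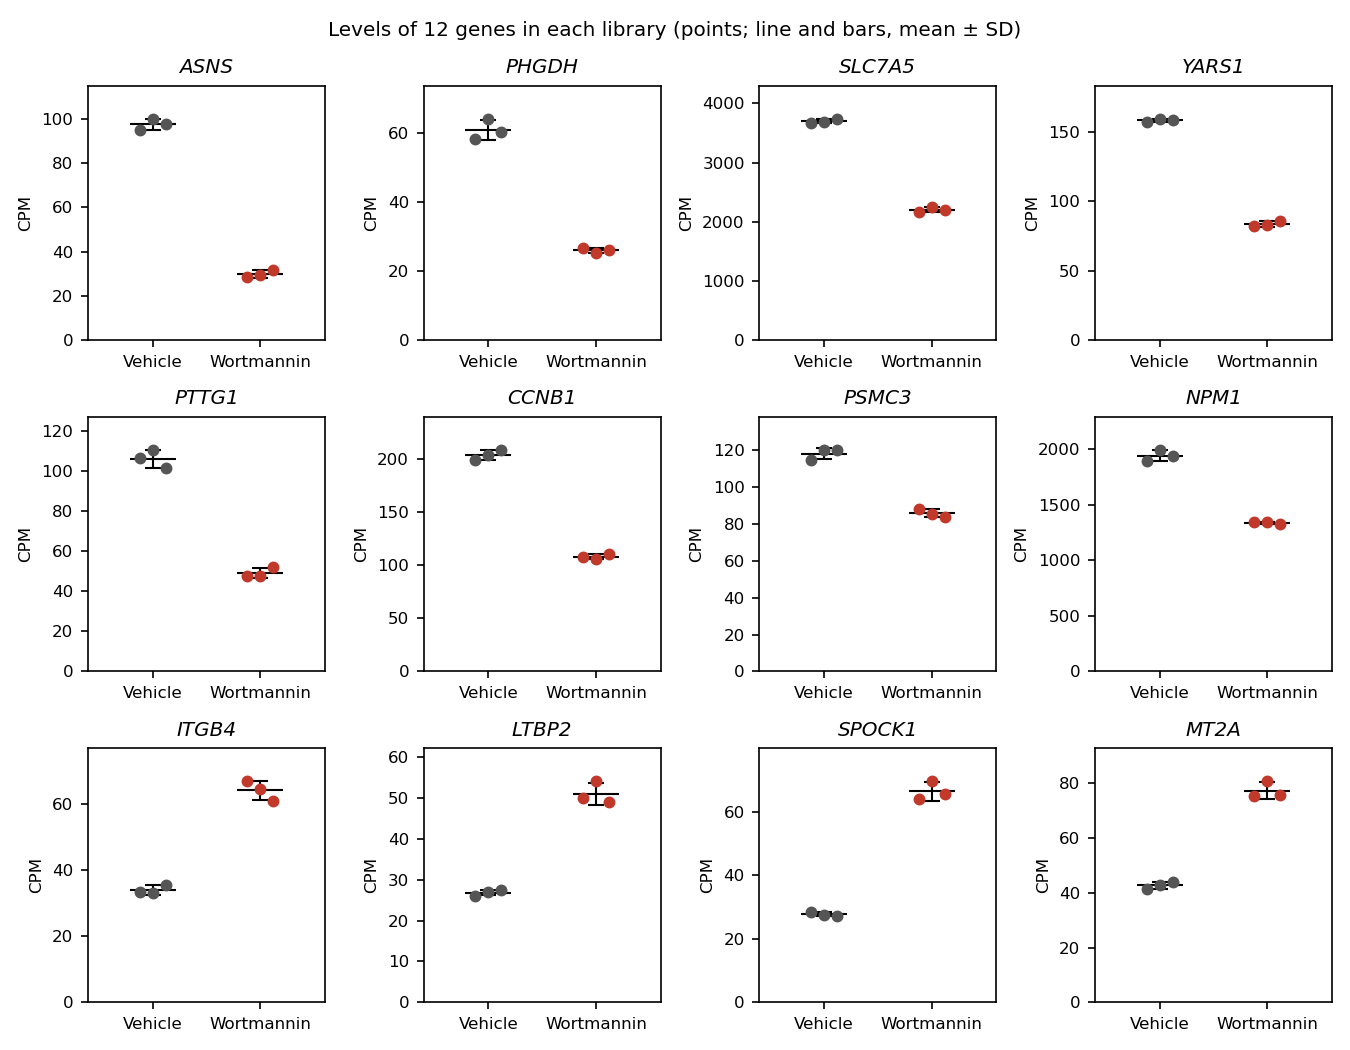
Level of 12 genes in CPM (vertical axis, from 0) in each of the 3 Vehicle (grey) and 3 Wortmannin (red) libraries, with the mean and SD of each group. The 8 genes of amino acid supply, mitosis, the proteasome and the nucleolus are lower in each Wortmannin library (ASNS 28.4 to 31.9 CPM against 95.0 to 99.7), and ITGB4, LTBP2, SPOCK1 and MT2A are higher.

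Genes of the mitotic lists fell nearly as a whole. Of 32 mitotic kinases, cyclins and regulators, 30 fell (median −0.54), 29 of them below each of the 19 other groups. All 13 tested members of the mitotic kinesin list, motors that build and pull the spindle, fell (median −0.51), each below the 19 groups. Of 33 centromere and kinetochore genes 27 fell (median −0.32), and 18, 5 and 6 members of these 3 lists belong to the most abundant class. PTTG1, securin, an inhibitor of the protease that parts sister chromatids, was at 107, 111 and 102 CPM in Vehicle and 47.8, 47.6 and 52.3 in Wortmannin (−1.11 ± 0.061, adjusted p = 1.9e-20). CCNB1, the main mitotic cyclin, was at 199.8, 204 and 209 CPM and 108, 106 and 110.4 (−0.91 ± 0.044), and CDC20, a co-activator of anaphase, at 154, 150.1 and 148 and 81.5, 81.4 and 85.4 (−0.86 ± 0.032). In each gene all 3 Wortmannin libraries stood below Vehicle. KIF20A, a kinesin of cell division, was at 89.5, 91.3 and 91.4 CPM and 48.1, 46.4 and 49.0 (−0.92 ± 0.039), CENPE, a kinetochore motor, at 76.7, 71.7 and 81.2 and 47.3, 46.0 and 44.3 (−0.74 ± 0.058), and CENPW, a centromere histone-fold protein, at 8.89, 9.32 and 10.1 and 5.47, 5.95 and 5.76 (−0.72 ± 0.121). FOXM1, the transcription factor of many of these genes, was at 259, 258 and 259 CPM in Vehicle and 163, 162 and 163 in Wortmannin (−0.67 ± 0.035). WEE1 (−0.03 ± 0.042) and FBXO5 (−0.13 ± 0.054), which hold back mitotic entry and exit, did not pass.

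Promoters of mitotic genes are known to carry a cell cycle homology region, read by the DREAM and FOXM1-MuvB complexes, often together with CCAAT boxes. The letters TTTGAA, in capitals below, are shown in the RefSeq windows of 4 mitotic genes that fell.
PLK1: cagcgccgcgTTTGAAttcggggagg
CCNB2: cgacgcggtaTTTGAAtcctggaaca
CDC20: acggttggatTTTGAAggagccaata
CDC25C: tggcggaaggTTTGAAtggtcaacgc
They lie at chr16:23678850-23678875 (plus strand), chr15:59105107-59105132 (plus), chr1:43358906-43358931 (plus) and chr5:138331819-138331844 (minus). On either strand, TTTGAA was found in a window of 18.2% of all genes and 13.7% of the tested ones, and in 16 of 24 mitotic kinases and regulators, 10 of 14 kinesins and 14 of 28 centromere and kinetochore genes with a window. CCAAT was found for 39.7% and 42.3% of genes, and for 21, 11 and 20 of the same 3 groups. Of the 40 members of these groups with TTTGAA 36 fell, and so did 22 of the 26 without it. PTTG1, CCNB1 and KIF20A, whose falls are given above, are among those without it. The motifs were counted separately, overlap between their matches was not examined, and neither was measured for binding here.

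Of 30 genes of DNA replication and origin licensing, 12 fell (median −0.07), with the helicase subunit MCM7 at 317, 319 and 318 CPM in Vehicle and 279.6, 266 and 281 in Wortmannin (−0.21 ± 0.032). The sliding clamp gene PCNA, at 262, 257 and 264 and 273, 264 and 256, overlapped and did not pass (0.02 ± 0.052). Among 19 tested G1 cyclins, CDK inhibitors and E2F factors, 4 fell and 2 rose. The falls numbered 2 without Wortmannin replicate 2 or 3 and 1 without Vehicle replicate 2, and the rises 1 without Wortmannin replicate 1 or Vehicle replicate 3. CCND3, a D-type cyclin, was at 185, 192 and 187 CPM and 135, 134 and 132 (−0.49 ± 0.034, adjusted p = 1.4e-18), while CCNE1, the cyclin of S phase entry, was at 27.2, 26.6 and 24.8 and 32.4, 32.5 and 31.7 (0.30 ± 0.048, adjusted p = 8.5e-07). Whether mitotic and replication genes differ in their change was not tested. Of 20 genes of homologous recombination 9 fell, and 5 without Wortmannin replicate 1 or without Vehicle replicate 1. Tubulins fell in 10 of 12 cases, 10 of the 12 belonging to the most abundant class: TUBA1B was at 2956, 3140.2 and 3077 CPM in Vehicle and 2052, 2062 and 2029 in Wortmannin (−0.58 ± 0.034). TUBA1A rose instead, from 145, 154 and 143 to 247, 251 and 241 CPM (0.74 ± 0.047). Tubulin genes are close copies of each other, and the division of shared reads between them is uncertain.

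**Figure D3:**
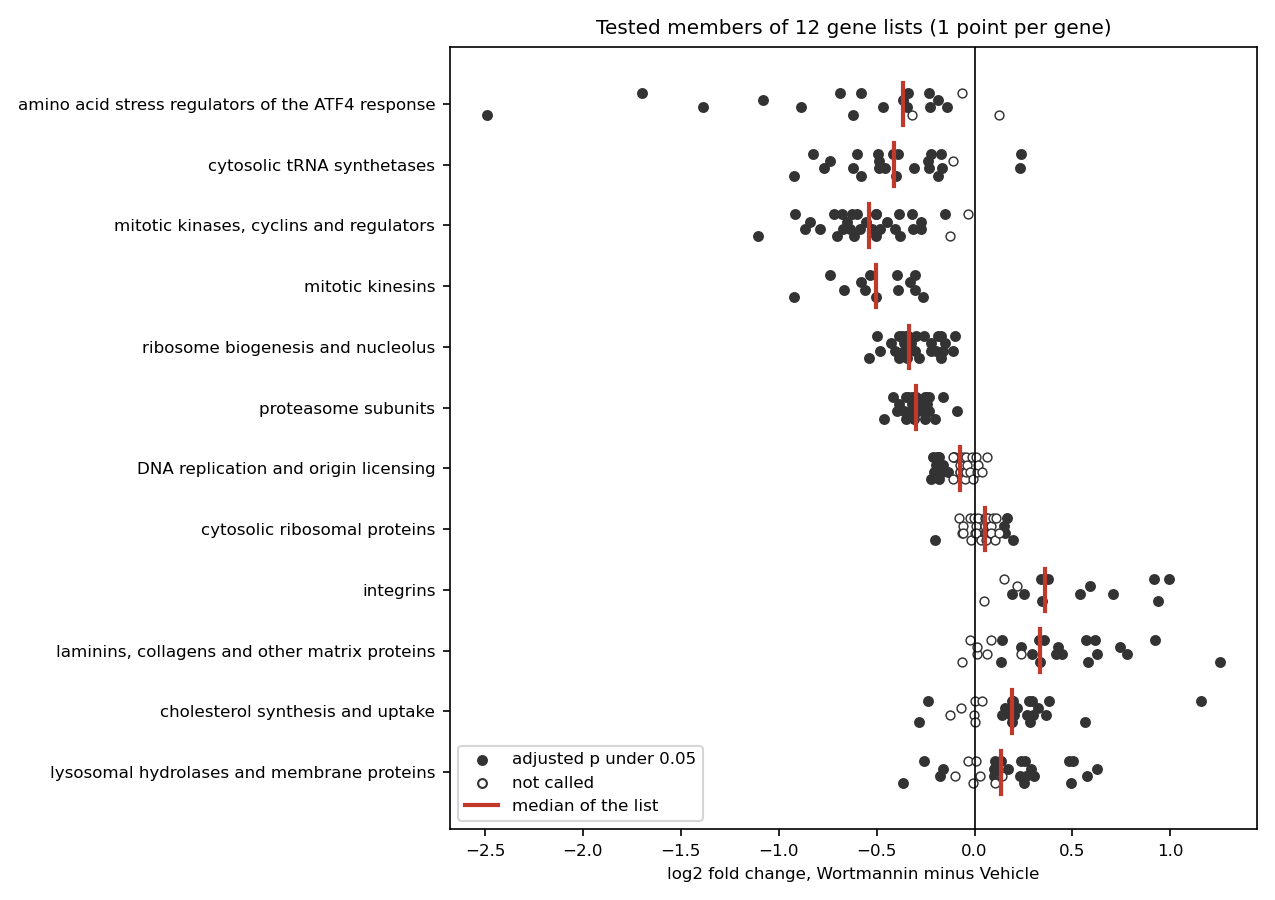
Log2 fold change, Wortmannin minus Vehicle, of each tested member of 12 gene lists (1 point per gene; filled, adjusted p under 0.05; open, not called; red line, median of the list). Points of the proteasome, nucleolar and mitotic lists lie below 0 almost throughout, those of ribosomal proteins and DNA replication lie close to 0, and those of integrins and matrix proteins lie mostly above it.

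Genes for building ribosomes fell together. All 30 listed genes of ribosome biogenesis and the nucleolus fell (median −0.33), 23 of them below each of the 19 other groups. Of the 30, 21 belong to the most abundant class. NPM1, a nucleolar chaperone, was at 1892, 1992 and 1939 CPM in Vehicle and 1342, 1342 and 1329.6 in Wortmannin (−0.54 ± 0.036, adjusted p = 3.8e-19). RRP9 (−0.50 ± 0.06), BOP1 (−0.48 ± 0.048), DDX21 (−0.43 ± 0.029) and NOP56 (−0.39 ± 0.036), which process ribosomal RNA, fell in the same range. Of 31 cytosolic ribosomal protein genes, all in the most abundant class, 4 rose and 1 fell (median 0.05), and 2 rose without Wortmannin replicate 2 and 1 without Vehicle replicate 1. In the 6 libraries alone 13 rose and 5 fell, and against the 3 groups given Liriopis extract in place of Vehicle 1 rose and 6 fell. The largest of these changes were RPL13 (0.19) and RPL38 (−0.20). The call of RPL13 was lost without Vehicle replicate 1 (0.16), and that of RPL38 without Wortmannin replicate 1 (−0.21) or 3 (−0.18) and without Vehicle replicate 1 or 2 (−0.19 in each). Mitochondrial ribosomal proteins fell in 24 of 25 cases (median −0.29), with 9 in the most abundant class and MRPL3 at 110.4, 113 and 110.5 CPM in Vehicle and 83.2, 81.2 and 80.7 in Wortmannin (−0.45 ± 0.036). Differences between these 3 lists were not tested.

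Among 24 translation factors, 19 of them in the most abundant class, 13 fell and 6 rose (3 without the low-count filter). EIF5A, a factor that helps stalled ribosomes, was at 992, 1020.2 and 1006 CPM in Vehicle and 687, 685 and 699 in Wortmannin (−0.54 ± 0.05), and EIF2S2, a subunit of the factor that brings the first tRNA, at 208, 216 and 214 and 148, 144 and 149 (−0.53 ± 0.05). EEF1A1, the abundant elongation factor, was higher, at 5563, 5749 and 5741 CPM and 6726, 6671 and 6659.9 (0.23 ± 0.049, adjusted p = 9.4e-05), the largest rise in CPM of all protein-coding genes. It has many pseudogene copies, so its level is uncertain.

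All 27 proteasome subunits of the list fell (median −0.30), between −0.09 (PSMC4) and −0.46 (PSMC3). Of these, 24 were below each of the 19 other groups. Of the 27 genes, 23 belong to the most abundant class. PSMC3, an ATPase of the regulatory particle, was at 115, 120.1 and 120.03 CPM in Vehicle and 88.3, 85.7 and 83.9 in Wortmannin (−0.46 ± 0.052, adjusted p = 1.4e-10). PSMB6, a catalytic subunit of the core, was at 168, 174 and 169.5 CPM and 126, 126 and 129.9 (−0.42 ± 0.046). In all 27 genes the 3 Wortmannin libraries lay below the 3 Vehicle libraries. Of 20 heat shock proteins 10 fell, among them the mitochondrial chaperonin pair HSPD1 (−0.46 ± 0.038) and HSPE1 (−0.46 ± 0.057) and the cytosolic chaperones HSP90AA1 (−0.41 ± 0.045) and HSP90AB1 (−0.37 ± 0.031), with 17 of the 20 in the most abundant class. Endoplasmic reticulum chaperones fell in 10 of 20 cases and rose in 2, and the falls numbered 6 without Wortmannin replicate 2, Vehicle replicate 1 or Vehicle replicate 3.

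Of 26 nuclear genes of oxidative phosphorylation 17 fell (median −0.18; 16 in the most abundant class), with cytochrome c, CYCS, at −0.43 and the succinate dehydrogenase subunit SDHB at −0.42. The 13 protein genes of the mitochondrial genome lay between −0.15 and 0.03, and edgeR called 0 of them, with 0 at an unadjusted p under 0.05 and 0 called by DESeq2. Of 22 genes of the citric acid cycle and its entries 12 fell and 1 rose, the isocitrate dehydrogenase IDH2 (0.25 ± 0.046). Glycolysis and glucose uptake gave 14 falls and 3 rises among 25 genes, 15 of them in the most abundant class. The triosephosphate isomerase TPI1 was at 926, 936 and 910.4 CPM in Vehicle and 720.04, 707 and 706 in Wortmannin (−0.38 ± 0.041), and the brain-type enzymes ALDOC (0.998 ± 0.161) and ENO2 (0.40 ± 0.049) rose, ALDOC from 1.51 ± 0.0428 to 3.02 ± 0.175 CPM. ALDOC was lower in Wortmannin than in 1 of the other groups and ENO2 lower than in 2. Their highest means in other groups were 6.10 and 56.8 CPM. Of 20 enzymes of purine and pyrimidine synthesis, 13 of them in the most abundant class, 14 fell and 2 rose (1 without Wortmannin replicate 2, Vehicle replicate 2 or Vehicle replicate 3), with ADSL (−0.40 ± 0.045), CTPS1 (−0.35 ± 0.034) and PRPS1 (−0.33 ± 0.035) leading the falls. Of 8 genes of the pentose phosphate pathway, which supplies ribose and NADPH, 2 rose and 4 fell, with 5 in the most abundant class. The falls numbered 2 without Vehicle replicate 1 and 1 without the low-count filter.

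**Figure D4:**
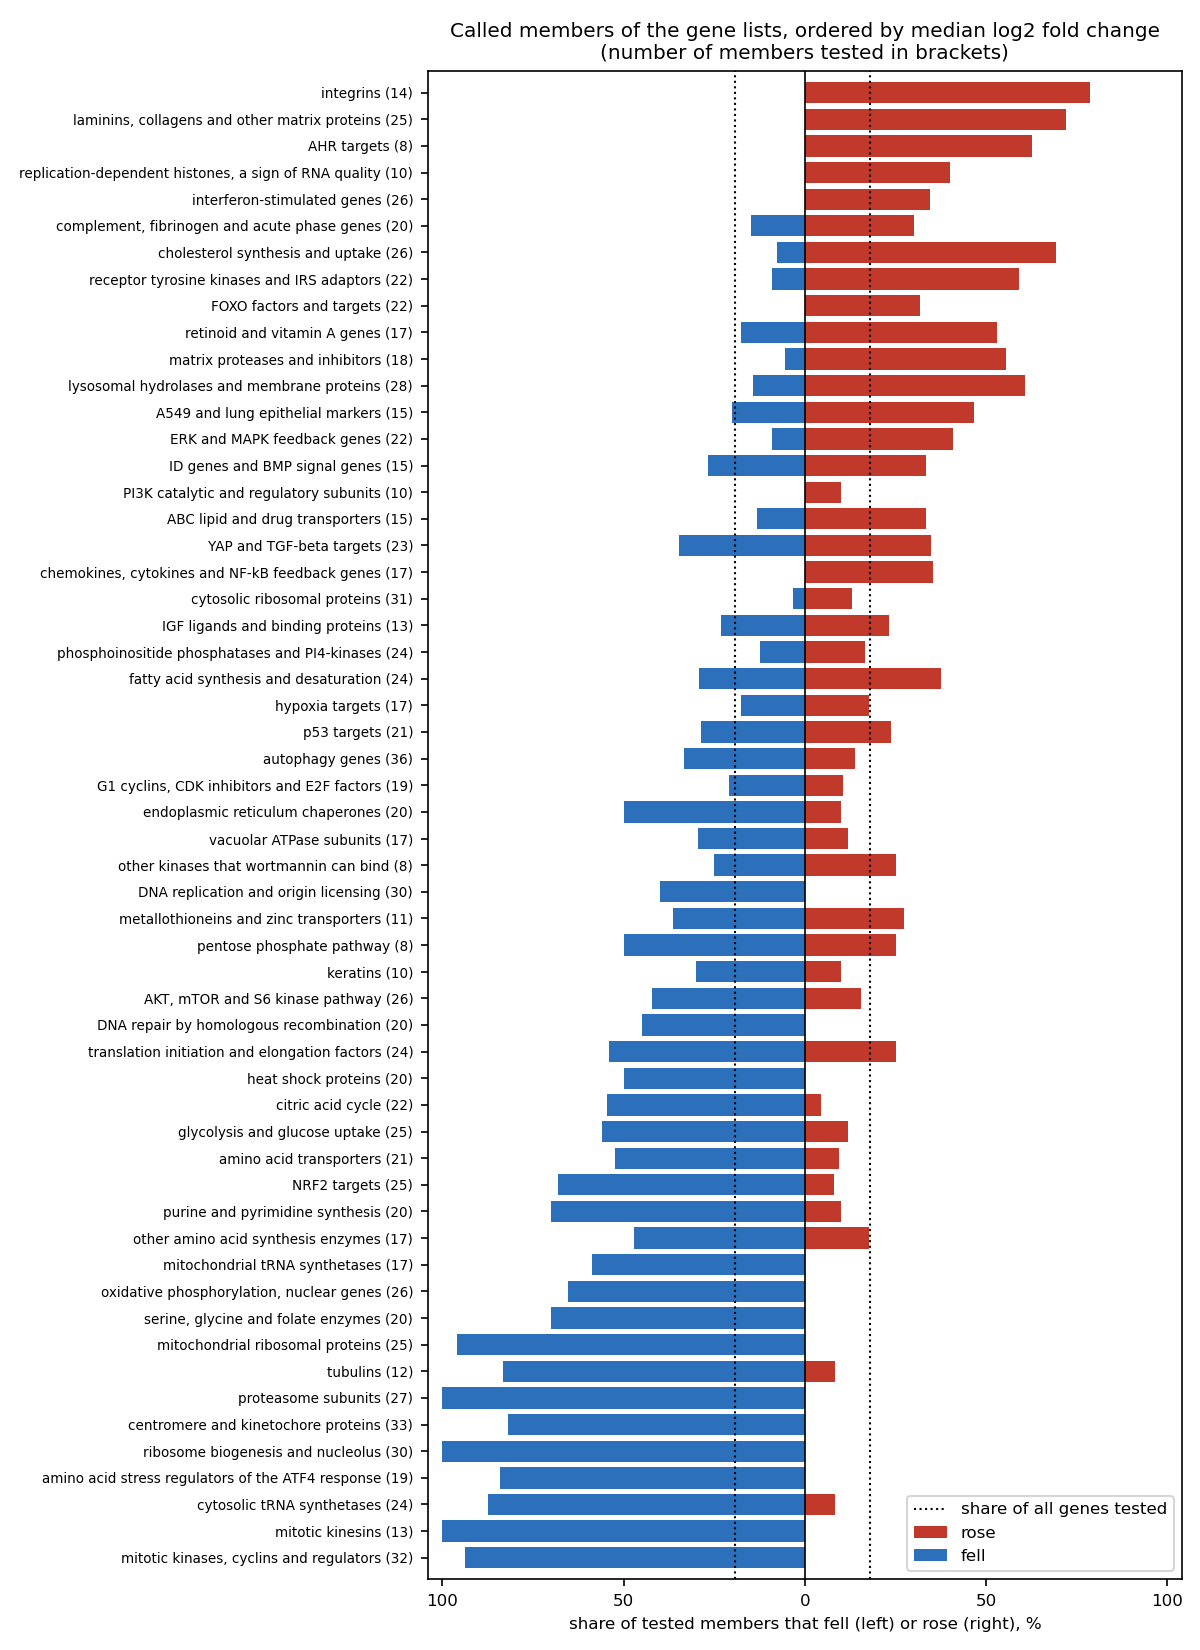
Share of the tested members of each gene list shown that rose (red, right) or fell (blue, left), in % of the members tested (number in brackets), ordered by the median log2 fold change of the list, highest at the top. Dotted lines mark the share of all genes tested that rose (18%) or fell (19.4%). The lists were chosen with earlier results of these data known. Mitotic, tRNA synthetase, nucleolar, proteasome and mitochondrial ribosome lists fill the lower end, and integrins and matrix proteins the upper.

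Genes of cholesterol synthesis rose modestly: 18 of 26 rose and 2 fell (median 0.19). TM7SF2, a sterol reductase, was at 4.77, 6.18 and 5.35 CPM in Vehicle and 12.3, 12.2 and 11.99 in Wortmannin (1.16 ± 0.104, adjusted p = 6.5e-14), and MSMO1, a sterol oxidase, at 32.7, 32.9 and 32.4 and 46.7, 50.2 and 48.0 (0.56 ± 0.052). Only 1 of the rises, TM7SF2, was above each of the 19 other groups. MSMO1 was higher in Wortmannin (mean 48.3 CPM) than in 17 of these groups and lower than in 1. The highest of their means was 82.5 CPM. The lamin B receptor LBR, which also acts as a sterol reductase, was among the falls (−0.29 ± 0.033). The letters TCACNCCAC, a core of the sterol response element, occurred in a window of 1 of the 19 genes of this list that have one, SREBF2, and in 1.39% of all genes and of the tested genes. Of 24 genes of fatty acid synthesis 9 rose and 7 fell, with the desaturase SCD5 (0.55 ± 0.079) and the acetyl-CoA synthetase ACSS2 (0.46 ± 0.054) up and the malic enzyme ME1 (−0.33 ± 0.035) and the acyltransferase GPAM (−0.26 ± 0.046) down.

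Lysosomal hydrolases and membrane proteins rose in 17 and fell in 4 of 28 cases (median 0.14; 14 in the most abundant class). NPC2, which carries cholesterol out of the lysosome, was at 34.2, 34.7 and 33.0 CPM in Vehicle and 53.7, 53.2 and 50.4 in Wortmannin (0.63 ± 0.06), and the proteases CTSF (0.58 ± 0.067) and TPP1 (0.50 ± 0.053) rose too. GLA, an alpha-galactosidase (−0.37 ± 0.039), PPT1 (−0.26 ± 0.04) and NPC1 (−0.18 ± 0.051) fell. Of 36 autophagy genes 5 rose and 12 fell (median −0.03), the rises led by WIPI1, which reads the lipid made by PI3K class III (5.42, 4.57 and 5.06 CPM in Vehicle, 7.96, 8.35 and 7.87 in Wortmannin; 0.69 ± 0.102), and MAP1LC3A (4.12, 4.36 and 4.33 and 6.78, 6.83 and 7.09; 0.69 ± 0.116). Without Vehicle replicate 2, 3 autophagy genes rose. Of 17 subunits of the vacuolar ATPase, which acidifies lysosomes, 2 rose and 5 fell, and 2 or 3 fell with any 1 library left out.

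Most integrin and matrix genes rose. Of 14 integrin genes 11 rose (median 0.36), 9 of them above each of the 19 other groups. ITGA2, a collagen receptor subunit, was at 36.5, 31.4 and 32.8 CPM in Vehicle and 66.6, 65.6 and 67.7 in Wortmannin (0.99 ± 0.059, adjusted p = 4.2e-21). ITGB4, the laminin receptor subunit of hemidesmosomes, was at 33.4, 33.0 and 35.6 CPM and 67.0, 64.5 and 61.0 (0.92 ± 0.057), and ITGA11, another collagen receptor subunit, at 28.1, 29.4 and 28.3 and 53.5, 57.5 and 53.4 (0.94 ± 0.055). All 3 rose close to 2-fold with no overlap, and the abundant ITGA3 rose from 374 ± 4.27 to 563 ± 10.7 CPM (0.59 ± 0.034). ITGB3, at 0.647, 0.857 and 0.953 CPM in Vehicle and 1.52, 1.44 and 1.07 in Wortmannin, was called (0.71) but not without Wortmannin replicate 1 (0.61) or 2 (0.66) or Vehicle replicate 1 (0.57) or 2 (0.74).

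Of 25 tested laminins, collagens and other matrix proteins 18 rose (median 0.34), 13 of them above each of the 19 other groups, with 13 in the most abundant class. SPOCK1, a secreted proteoglycan, was at 28.5, 27.6 and 27.3 CPM in Vehicle and 63.9, 69.6 and 65.5 in Wortmannin (1.26 ± 0.057). LTBP2, which binds matrix microfibrils, was at 26.1, 27.0 and 27.4 CPM and 49.8, 54.0 and 48.9 (0.92 ± 0.059). The groups of both genes stood well apart. COL4A5 (0.74 ± 0.049), LAMB2 (0.63 ± 0.052) and LAMA4 (0.61 ± 0.144) rose as well, while COL4A1 (−0.07 ± 0.05), LAMC1 (0.01 ± 0.044) and SPARC (−0.02 ± 0.061) did not pass. Among 18 tested matrix proteases and inhibitors 10 rose and 1 fell. MMP7, matrilysin, was at 4.93, 5.75 and 5.28 CPM in Vehicle and 12.04, 11.3 and 10.6 in Wortmannin (1.09 ± 0.107), the gelatinase gene MMP2 at 8.65, 8.39 and 8.40 and 16.1, 15.5 and 15.5 (0.89 ± 0.066), and the protease inhibitor gene SERPINE2 at 52.6, 52.995 and 53.3 and 96.1, 101 and 95.3 (0.88 ± 0.041). The fall of the sheddase gene ADAM17 (−0.12) was not called without Wortmannin replicate 1 (−0.12) or 3 (−0.10) or Vehicle replicate 1 (−0.10) or 2 (−0.12). The fibroblast collagen genes COL1A1 (−0.07 ± 0.061) and COL3A1 (−0.19 ± 0.115) did not pass.

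The formins DIAPH3 (−0.36 ± 0.049) and DIAPH1 (−0.29 ± 0.038), which extend actin filaments, and cofilin, CFL1 (−0.28 ± 0.043), which severs them, fell. Targets of YAP and TGF-beta were split, 8 up and 8 down among 23 (12 in the most abundant class). The rises numbered 5 without Wortmannin replicate 2 or Vehicle replicate 3. ANKRD1, a nuclear YAP target, fell (−0.50 ± 0.079), and the receptors TGFBR1 (0.31 ± 0.041) and TGFBR2 (0.30 ± 0.041) rose. Of 15 ID genes and genes of BMP signalling, a branch of the TGF-beta family, 5 rose and 4 fell, and 1 fell without Vehicle replicate 2 or 3. Among 10 tested keratins 1 rose and 3 fell, and 2 rose and 6 fell in the 6 libraries alone. KRT4 fell from 42.4, 44.1 and 41.0 CPM to 18.4, 16.7 and 17.9 (−1.26 ± 0.055) and KRT19 rose from 25.8, 27.6 and 27.8 to 44.4, 41.7 and 39.0 (0.62 ± 0.057), while the main keratins of the line, KRT8 (−0.09 ± 0.039) and KRT18 (−0.06 ± 0.034), did not pass. Of 15 tested markers of A549 and of lung epithelium 7 rose and 3 fell. The mucin gene MUC1 was at 2.83, 2.46 and 2.60 CPM in Vehicle and 4.08, 3.80 and 4.19 in Wortmannin (0.61 ± 0.167), and FOXA2, a pioneer factor of lung epithelium, at 46.0, 51.6 and 53.7 and 41.2, 43.5 and 42.2 (−0.26 ± 0.06). Groups overlapped in neither gene.

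Some innate immune genes rose. Of 17 tested chemokine, cytokine and NF-kB feedback genes 6 rose: CXCL8, interleukin 8, was at 0.889, 0.714 and 0.807 CPM in Vehicle and 2.73, 1.99 and 2.40 in Wortmannin (1.56 ± 0.207, adjusted p = 8.2e-09). Among 20 tested complement, fibrinogen and acute phase genes 6 rose and 3 fell. Complement factor B, CFB, was at 0.647, 0.607 and 0.880 CPM and 1.97, 2.03 and 2.33 (1.56 ± 0.247), and C1R, a protease of the classical pathway, rose too (0.71 ± 0.049). The 3 fibrinogen chains, neighbours on chromosome 4, moved down, with FGA at 199, 191 and 195 CPM in Vehicle and 136, 134 and 133 in Wortmannin (−0.54 ± 0.032), FGB at −0.45 and FGG at −0.29. Of 26 tested interferon-stimulated genes 9 rose (median 0.20), led by MX1, an antiviral GTPase, at 0.566, 0.571 and 0.660 CPM and 1.80, 0.960 and 1.18 (1.13 ± 0.259), and IFIT2 (1.12 ± 0.239). The libraries of CXCL8, CFB and MX1 did not overlap between the groups. Beside these counts stand the rises of the monocyte markers CD14, at 2.52 ± 0.0830 CPM in Vehicle and 4.42 ± 0.456 in Wortmannin, and CD68, at 11.8 ± 0.449 and 17.1 ± 1.92, whose part in them was not tested. Both belong to the 16 markers of fibroblasts, endothelium and blood, of which 7 were tested, 3 rose and 4 were not called. PTPRC, another blood marker of that list, had no count in any Wortmannin library. The chemokine, complement and interferon lists had median Vehicle levels of 15, 16.5 and 7.63 CPM. As given for the FOXO list, 28.8% of all protein-coding genes with a mean of 3.58 to 15.1 CPM rose and 10.1% fell. The complement median lies above that range, and the counts of these lists were not tested against the share for their level.

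Feedback genes of ERK signalling, the MAP kinase branch below the same receptors, rose in 9 and fell in 2 of 22 cases (1 without Vehicle replicate 1 or 3). DUSP6, a phosphatase of ERK, was at 10.96, 10.2 and 10.5 CPM in Vehicle and 15.95, 14.2 and 14.8 in Wortmannin (0.51 ± 0.077, adjusted p = 2.1e-07), and DUSP4 rose by 0.48. Of 25 NRF2 targets 17 fell and 2 rose (1 without Wortmannin replicate 1 or 3 or Vehicle replicate 2 or 3), with 23 in the most abundant class. The ferritin light chain gene FTL was at 8592, 8476 and 8652 CPM and 6056, 5960.1 and 5702 (−0.54 ± 0.057), the largest fall in CPM of all protein-coding genes, and heme oxygenase, HMOX1, at 142, 146 and 146 and 86.2, 86.8 and 91.5 (−0.72 ± 0.045). The conjugate exporter gene ABCC3 rose from 415, 403 and 409.9 to 685, 682 and 687 CPM (0.74 ± 0.05). Among 11 tested metallothionein and zinc transporter genes 3 rose and 4 fell (2 without Wortmannin replicate 3), the rises being the zinc-binding MT2A (41.3, 42.7 and 43.9 CPM and 75.0, 80.6 and 75.6; 0.85 ± 0.091), MT1F (1.07 ± 0.204) and MT1X (0.53 ± 0.1), which are close copies with uncertain division of reads. Of 21 p53 targets 5 rose (3 without the low-count filter) and 6 fell. TP53INP1, which also takes part in autophagy, was at 9.90, 8.75 and 9.75 CPM in Vehicle and 15.5, 14.8 and 16.1 in Wortmannin (0.71 ± 0.071), and the cell death gene BAX fell (−0.27 ± 0.055).

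Of 8 AHR targets 5 rose, among them TIPARP (39.9, 40.5 and 40.8 CPM in Vehicle, 60.05, 61.8 and 61.2 in Wortmannin; 0.59 ± 0.046), a feedback repressor of this receptor, but the count was 3 without Wortmannin replicate 3 or Vehicle replicate 2. Hypoxia targets gave 3 rises and 3 falls among 17 genes, with VEGFA (−0.38 ± 0.05) and ADM (−0.33 ± 0.052) down. Genes of retinoid handling rose in 9 and fell in 3 of 17 cases (1 without Wortmannin replicate 2 or 3), with STRA6, the receptor for the retinol carrier, at 46.5, 43.9 and 43.6 CPM in Vehicle and 103, 101 and 95.9 in Wortmannin (1.17 ± 0.052), and RARRES1 higher as well (0.94 ± 0.116). ABCA3, the lipid pump of surfactant bodies in alveolar cells, was at 25.8, 26.3 and 26.1 CPM and 52.7, 54.4 and 51.8 (1.02 ± 0.058), one of 5 rises and 2 falls among 15 tested ABC transporters. The groups of STRA6, ABCA3 and TIPARP did not overlap. Histone genes of S phase, whose transcripts mostly lack a poly(A) tail and so bear on RNA quality, rose in 4 of 10 tested cases, and in 2 without Wortmannin replicate 2 or Vehicle replicate 3. The part of RNA quality in these results was not tested.

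Some of the largest single changes lay outside these groups. SLITRK6, a neuronal adhesion protein gene, was at 5.21, 4.04 and 4.58 CPM in Vehicle and 11.1, 11.5 and 12.8 in Wortmannin (1.36 ± 0.105), and DNAH1, an axonemal dynein, at 4.37, 4.32 and 4.84 and 10.2, 10.3 and 11.2 (1.23 ± 0.116). PPARA, the nuclear receptor of fatty acid breakdown, was at 5.05, 4.89 and 4.58 CPM and 10.8, 9.72 and 10.2 (1.08 ± 0.115), with no overlap in any of the 3. The membrane glycoprotein gene CDCP1 (1.10 ± 0.086), the glycosyltransferase gene GALNT12 (1.08 ± 0.109), the sodium-calcium exchanger gene SLC8A1 (1.12 ± 0.124) and IDUA, a lysosomal hydrolase gene (1.11 ± 0.121), rose about 2-fold. The abundant CYP24A1, which inactivates vitamin D, went from 1058 ± 14.1 to 1449 ± 30.7 CPM (0.45 ± 0.036), and DCBLD2, a membrane receptor, from 599 ± 10.2 to 818 ± 14.4 (0.45 ± 0.03). Among falls, the urothelial gene UPK3B was at 7.28, 8.36 and 8.43 CPM in Vehicle and 4.05, 4.25 and 4.08 in Wortmannin (−0.96 ± 0.089), and the orphan nuclear receptor NR4A3 at 9.74, 9.14 and 8.40 and 4.91, 4.32 and 4.98 (−0.94 ± 0.108). FCGBP, a mucus protein gene, was variable, at 12.6, 8.86 and 13.4 CPM and 29.2, 17.8 and 28.8 (1.13 ± 0.294, adjusted p = 0.002), though its groups did not overlap.

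Among genes that do not code for protein, the long non-coding APPAT rose from 6.98 ± 0.445 to 14.2 ± 0.500 CPM (1.02 ± 0.109) and the pseudogene FER1L4 from 4.85 ± 0.282 to 9.19 ± 0.230 (0.92 ± 0.113). The pseudogenes UBE2SP1 (−1.002 ± 0.112) and CDC20P1 (−0.90 ± 0.093), copies of mitotic genes, fell, and the division of reads between them and their parent genes is uncertain. TUBA1B-AS1, which overlaps TUBA1B on the opposite strand, was at 73.8, 19.5 and 63.2 CPM in Vehicle and 0.173, 24.6 and 0.358 in Wortmannin, with overlapping groups. It was called (−2.66 ± 1.062, adjusted p = 0.045) but not without Wortmannin replicate 1 (−2.07) or 3 (−2.09), without Vehicle replicate 1 (−2.32) or 3 (−2.49), or with DESeq2 (−2.64). PAPPA-AS1 rose by 0.75 and was not called without Vehicle replicate 3 (0.67). Antisense values are uncertain, because the sources used here do not say whether counting used strand. ENSG00000256349, listed without a symbol on chromosome 11, had 0 counts in each Vehicle library and 28, 25 and 42 in the Wortmannin libraries but did not pass (adjusted p = 0.095).

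A few leading genes are given beside their range over the whole series. ASNS had a mean of 29.98 ± 1.75 CPM in Wortmannin, whereas the means of the other 19 groups lay between 69.5 and 108 CPM. For PLK1 the Wortmannin mean was 112 ± 1.48 CPM, against 178 to 211 in the others, and for KIF20A it was 47.8 ± 1.36 against 72.8 to 93.3. IGF2, at 28.8 ± 1.43 CPM, had means of 4.82 to 10.9 elsewhere, SPOCK1, at 66.3 ± 2.91, of 21.1 to 28.9, and ABCA3, at 52.97 ± 1.35, of 24.9 to 29.9. Each of these 6 genes passed the test against all 19 groups in the same direction. In GRCh38 they lie at chr7:97852118-97872542 (minus), chr16:23677656-23690367 (plus), chr5:138178719-138187715 (plus), chr11:2129112-2149603 (minus), chr5:136975298-137598379 (minus) and chr16:2275881-2340746 (minus), in the order named. Of the 214 genes that rose at least 2-fold over Vehicle, 90 were also higher than each of the 19 groups, and of the 54 that fell as much, 18 were lower than each.

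**Figure D5:**
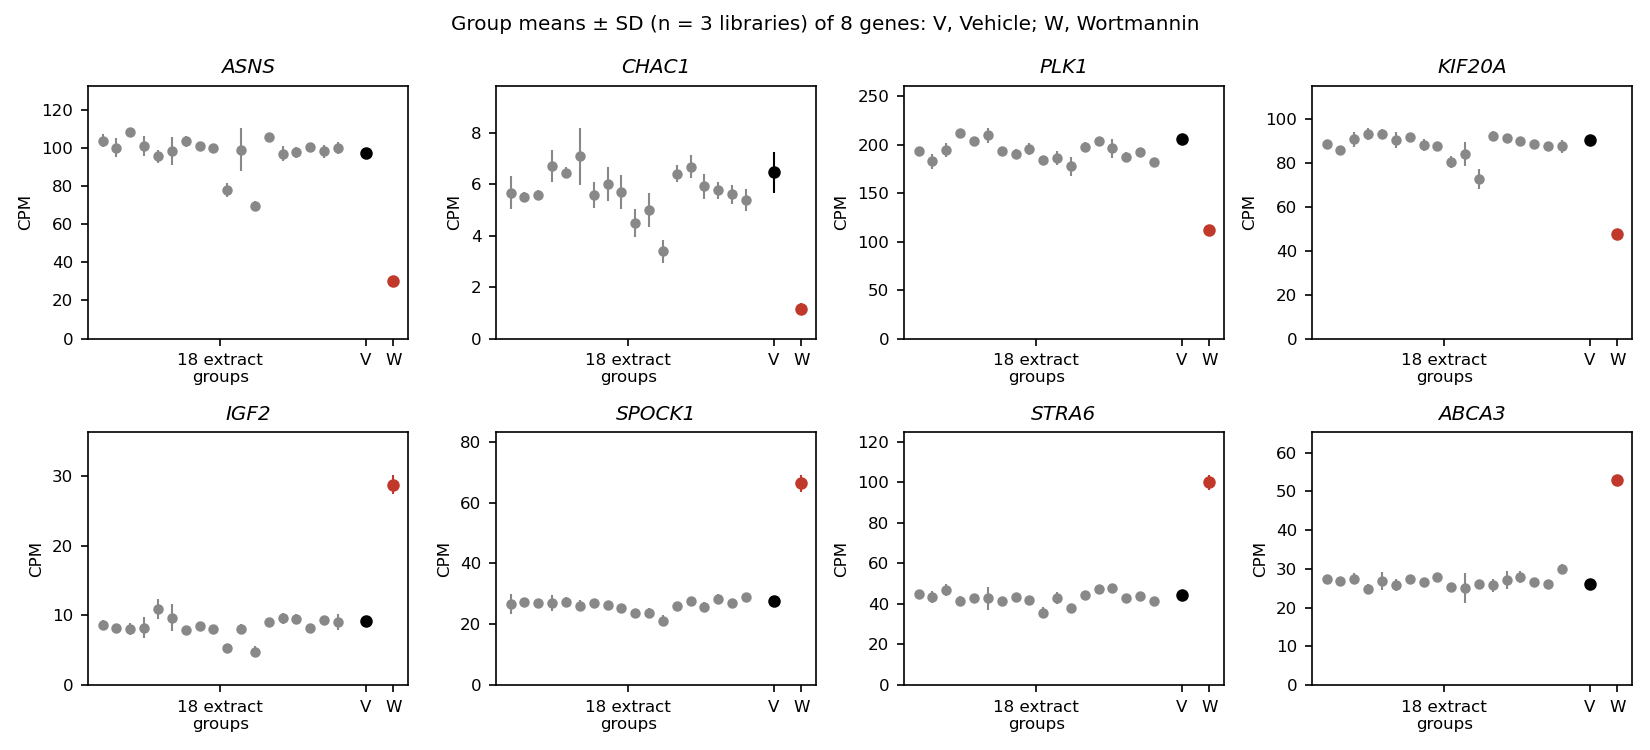
Mean ± SD (n = 3 libraries) of 8 genes in CPM (vertical axis, from 0) in the 18 extract groups (grey), Vehicle (V, black) and Wortmannin (W, red). ASNS, CHAC1, PLK1 and KIF20A are lowest in Wortmannin, and IGF2, SPOCK1, STRA6 and ABCA3 are highest. The extract groups with the lowest ASNS (69.5 CPM) and CHAC1 (3.39 CPM) means stand between Vehicle and Wortmannin.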

How the data were processed

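Total RNA of A549 cells was sequenced in 60 libraries, 20 groups of 3, of which the Wortmannin and Vehicle groups are compared here. Per the submitters' processing notes, FastQC 0.11.9, Trim Galore 0.6.5, STAR 2.7.3a and RSEM 1.3.3 were used, with genome GRCh38, and the deposited table holds RSEM estimated counts of 60675 genes. No source used here names the annotation release or the strand setting. RSEM divides reads shared by similar genes, so 10.7% of the values were not whole; all were rounded.

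Genes were filtered with filterByExpr over the 20 groups, leaving 17368. Libraries were scaled by TMM and fitted with edgeR 4.0.16 (R 4.3.3), robust quasi-likelihood, 1 mean per group over all 60 libraries (40 residual degrees of freedom), with Benjamini-Hochberg adjustment. Genes were called at an adjusted p under 0.05, and the SE is the absolute log2 fold change over the square root of F. Alternatives were DESeq2 1.42.0, other scaling and filters, the 6 libraries alone, a replicate block, 1 library left out and extract groups as reference. On simulated counts the fit recovered 47 of 50 2-fold rises and 41 of 50 1.5-fold falls, and called 5 of 17014 unchanged genes. Only genes with a mean of at least 1 CPM were changed there, up and down in equal number. The counts were drawn with the dispersions of the fit. These rates were not examined for data with as many changed genes as here.

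The gene lists were chosen with earlier results of these data known. Named genes were the largest changes in log2 and in CPM, the lowest adjusted p, the largest called members of each list (every member of the target lists), genes near 0 counts in 1 group only, and the largest changes among genes that do not code for protein. INSR, IRS1, ATF4, FOXM1, PSMC4, MTHFD1, SHMT1 and the other genes named as not passing, outside the target lists, were chosen after their values were seen. A few genes and 1 list are not reported here. Gene names came from a gene table (56558 identifiers) and GENCODE 29 (497), and 3620 had none.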

Additional observations from a re-analysis of the deposited data

How the results depend on the processing

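The number of changed genes lay between 5612 and 6549 under DESeq2 (5982), RLE scaling (6503), no low-count filter (5982), CPM of at least 1 in 3 libraries (6470), a replicate block (6549) and 1 library left out (5612 to 5748), and was 7569 in the 6 libraries alone. Against the 3 Liriopis groups or the 6 groups at 20 µg/mL it was 8248 and 8432, and 9 and 26 of the calls against Vehicle then had the other sign. In every setting, these 2 references included, each gene called both there and in the reported fit had the same sign. The 9 and 26 genes were thus not called against the extract groups. Genes that rose at least 2-fold numbered 116 with CPM of at least 1 in 3 libraries, and those that fell as much numbered 29 with that filter and 97 with no low-count filter; these filters test fewer or more genes of low level. No pairing by replicate number was seen: deviations of same-numbered libraries had correlations of −0.044, −0.0051 and −0.047, the highest for none of the numbers. With 3 libraries a group these values cannot exclude a pairing. The block gave 6549 genes (7478 in the 6 libraries alone). Against the 20 µg/mL groups FOSL1 (0.11), SLC16A3 (−0.000915) and TUBA1B-AS1 (1.09) had the other sign. The cause of these differences was not tested. Of 344 named genes 62 did not pass in at least 1 setting. Counts of list members moved by over 1.5 times in at least 1 setting for 51 of 116 counts. With Vehicle as reference and all libraries kept, rises as reported and at the farthest setting were 3 and 5 for IGF genes, 5 and 3 for p53 targets, 6 and 3 for translation factors, 4 and 14 for cytosolic ribosomal proteins, 8 and 5 for YAP and TGF-beta targets, 1 and 2 for keratins, 4 and 2 for histones and 0 and 2 for heat shock proteins. Falls were 2 and 4 for the other kinases that wortmannin can bind, 4 and 1 for the pentose phosphate pathway, 5 and 3 for vacuolar ATPase subunits, 4 and 7 for G1 genes, 10 and 5 for endoplasmic reticulum chaperones, 1 and 5 for cytosolic ribosomal proteins, 3 and 6 for keratins and 3 and 5 for epithelial markers. Against the extract groups the larger moves were in rises of FOXO targets (7 and 13), AKT and mTOR genes (4 and 8), interferon-stimulated genes (9 and 14), hypoxia targets (3 and 6) and ABC transporters (5 and 9), and in falls of phosphoinositide phosphatases (3 and 6), hypoxia targets (3 and 7), vacuolar ATPase subunits (5 and 8), cytokine genes (0 and 3) and cholesterol genes (2 and 5). With 3 libraries a group and 24.9 to 28.4 M counts each, changes in genes near 1 CPM have wide errors, and a gene that did not pass is not shown to be equal.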
